A study of Mus musculus with 6 samples.

Results

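Solute carriers are membrane proteins that move small molecules across the plasma membrane and across the membranes of lysosomes, the Golgi apparatus and mitochondria. Transcripts of 184 solute carrier genes were examined in mouse lung interstitial macrophages. They are the genes whose symbol has the form Slc, a family number, the letter a and a member number, and that were chosen by a level of at least 1 CPM, a gene's counts scaled to the library's total, in 3 or more of the 6 libraries. Such a symbol is carried by 342 of the 21965 genes counted, and 158 of these did not reach the level, 76 of them without a count in any library. The level chose the members, so that they are expressed here is no finding. The CPM rule was met in all 6 libraries by 162 members. Slc1a3, Slc6a8, Slc1a4, Slc16a14 and Slc39a12, named for having met it in the 3 PBS libraries alone, had to be lower after WGP to pass in that way, and no member passed through the WGP libraries alone. Just inside the rule lay Slc1a3 and Slc39a12, whose third-highest level was 1.00 and 1.23 CPM, and just outside lay Slc4a3 and Slc36a2 with 0.952 and 0.885 CPM.

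The cells came from C57Bl/6 mice of 6 to 8 weeks that had received WGP or phosphate-buffered saline (PBS) by intraperitoneal injection. WGP is a preparation of β-glucan from the cell walls of yeast and fungi, and PBS served as its comparison. The titles of all 6 libraries, those after WGP too, carry the word Control, which is not explained in the labels used here. Mice got 1 mg of WGP over a treatment of 6 days, and lungs were collected on day 7. Interstitial macrophages were stained with antibodies in digested lungs and their polyA RNA was sequenced, with 3 libraries after WGP and 3 after PBS. Whether a library holds 1 mouse or several is not in the labels, so p-values reflect no more than the variation among the 6 libraries, part of which may be technical.

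Carriers of the SLC families work as uniporters, as cotransporters driven by a sodium or proton gradient, or as exchangers. In macrophages they feed glycolysis and the mitochondria, supply arginine, cystine and glutamine, take iron, zinc and heme out of phagosomes and lysosomes, and carry nucleosides and amino acids set free when engulfed cells are digested. Setting WGP against PBS asks how β-glucan training, which is known to change the metabolism of myeloid cells, altered the transcripts of these transporters. Each member was put in a substrate class by its family. The symbol form leaves out families or subfamilies with another letter, such as Slc35b to Slc35f and Slco. It takes in 4 genes that are no carriers, the scaffold genes Slc9a3r1 and Slc9a3r2, Slc4a1ap and Slc7a6os.

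The libraries held between 18254678 and 20346517 counts. All 14 markers listed for interstitial macrophages were measured, 3 higher and 4 lower, with summed levels between 7209 and 8288 CPM after WGP and between 8819 and 9853 CPM after PBS. Markers of other cells differed between the groups. The 14 alveolar macrophage markers, 13 of them lower, summed to 1442, 1818 and 1627 CPM in the WGP libraries and 6841, 8207 and 5377 CPM in the PBS libraries. Of the 13 tested epithelial markers 11 fell (sum of 14 markers between 21.4 and 76.6 CPM after WGP and between 346 and 758 CPM after PBS), of 10 endothelial markers 8 fell (sum between 99.6 and 124 CPM after WGP and between 329 and 357 CPM after PBS), and of 11 classical monocyte markers 10 rose (sum between 11331 and 14680.4 CPM after WGP and between 4949 and 5699.9 CPM after PBS). Of the neutrophil markers 2 of 10 rose, of the fibroblast markers 3 of 9 tested fell, of the lymphoid markers 2 of 11 fell, and no call was made among 6 erythroid markers. No marker of these lists was at 0 in all libraries. The part of such cells in the levels of solute carriers was not tested, and in bulk RNA fewer cells of a type cannot be told apart from less RNA per cell. Summed transcripts of 4 Y-linked genes were 222, 199 and 208 CPM in the WGP libraries and 118, 182 and 10.1 CPM in the PBS libraries. PBS replicate 3 stood apart in this sum, the sex of the mice is not in the labels, and calls of named genes that change with this sum as a covariate are given beside them.

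After WGP 33 solute carrier genes were higher and 39 lower, and 112 did not pass the test. A call is an adjusted p under 0.05 (edgeR, quasi-likelihood test, Benjamini-Hochberg over the 12305 genes tested), and all 184 members were tested. Higher genes made up 17.9% of the members, against 15.2% of all genes tested, and lower genes 21.2%, against 15.7%. Among the 11635 tested genes that meet the same level rule, 16.1% were higher and 16.1% lower. The median log2 fold change of the members was -0.01, and that of all genes -0.02. The 3 WGP libraries lay above all PBS libraries for 45 members and below them for 54, where 23.2% and 24.9% of all genes tested did so. With library sizes alone as the scaling, which lowers the median of all genes by a log2 shift of -0.10, 23 members were higher and 44 lower, so that 34.3% of the calls in place of 45.8% were increases. When the Y-linked sum was added as a covariate, chosen after the data were seen, 28 were higher and 35 lower.

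**Figure D1:**
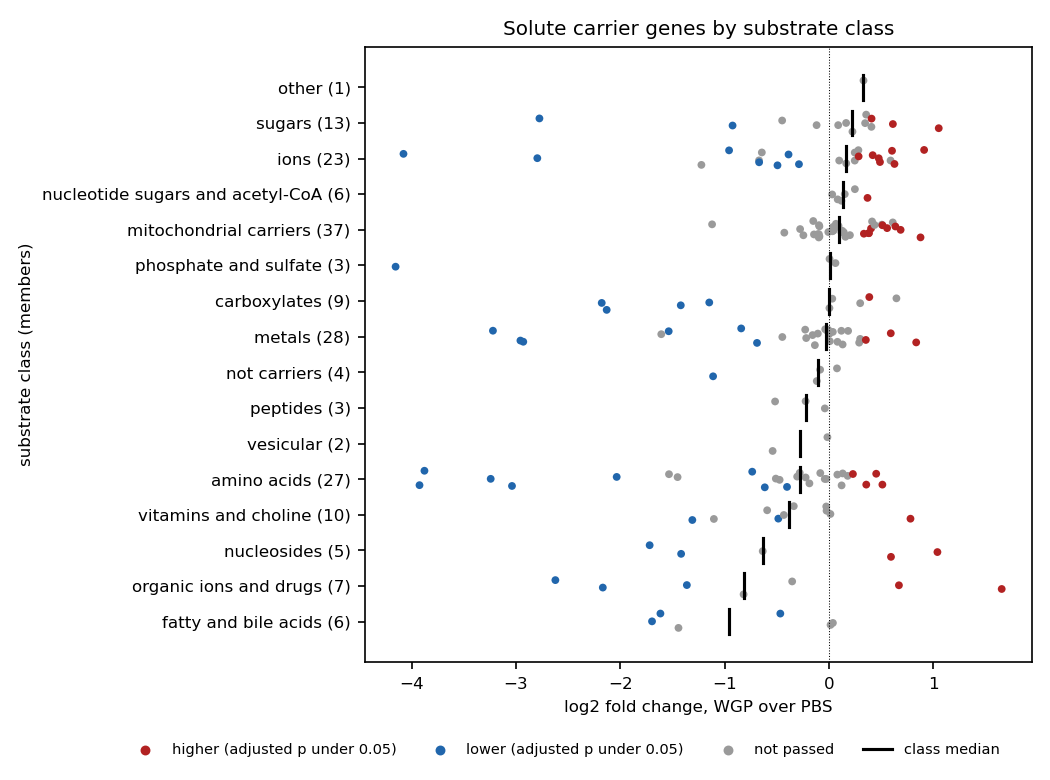
Log2 fold change (WGP over PBS) of the 184 solute carrier genes, 1 point per gene, by substrate class with the number of members in brackets. Red points rose and blue points fell at an adjusted p under 0.05, grey points did not pass, and the black bar is the class median. The large decreases, down to -4.15, lie in several classes, while no mitochondrial carrier was called lower.

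Most changes of at least 2-fold were decreases. At least 2-fold lower were 26 members and at least 2-fold higher were 3 (Slc22a4, Slc2a9 and Slc28a2), against 9.22% and 1.32% of all genes tested. Under a mean level of 5 CPM, 10 of 36 members fell (27.8%) and 2 rose (5.56%), where 18.6% of all genes at this level fell and 1.2% rose. Of these 10, Slc1a3, Slc6a8, Slc16a14 and Slc39a12 had met the level rule in the PBS libraries alone and so had to be lower to enter. They are also among the 26, and the shares of all genes tested are taken without that rule. Between 5 and 50 CPM, 23 of 94 fell (24.5%) and 10 rose (10.6%), where 17.1% of all genes fell and 9.28% rose. From 50 CPM upwards, 6 of 54 fell (11.1%) and 21 rose (38.9%), where 11.9% of all genes fell and 32.8% rose. The median log2 fold changes of the members at these levels were -0.66, -0.05 and 0.12, and those of all genes -0.66, -0.04 and 0.12. The shift of calls with level was thus seen in all genes and not in the carriers alone. At least 2-fold lower were 18.4% of all genes under 5 CPM and 2.87% from 50 CPM upwards, against 10 of 36 and 2 of 54 members. The 26 members at least 2-fold lower had a median level of 2.30 CPM after WGP and 9.56 CPM after PBS, and only 8 of them averaged at least 20 CPM after PBS. Among the 26, WGP replicate 1 was the lowest WGP library for 14 and PBS replicate 3 the lowest PBS library for 17. These libraries also had the lowest alveolar macrophage, epithelial and neutrophil sums of their groups, the last at 1779 and 1336 CPM. In the endothelial, fibroblast, lymphoid and erythroid sums WGP replicate 1 was lowest too, but PBS replicate 3 was not. In the interstitial macrophage and classical monocyte sums neither library was lowest. The part of any of these cells was not tested.

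**Figure D2:**
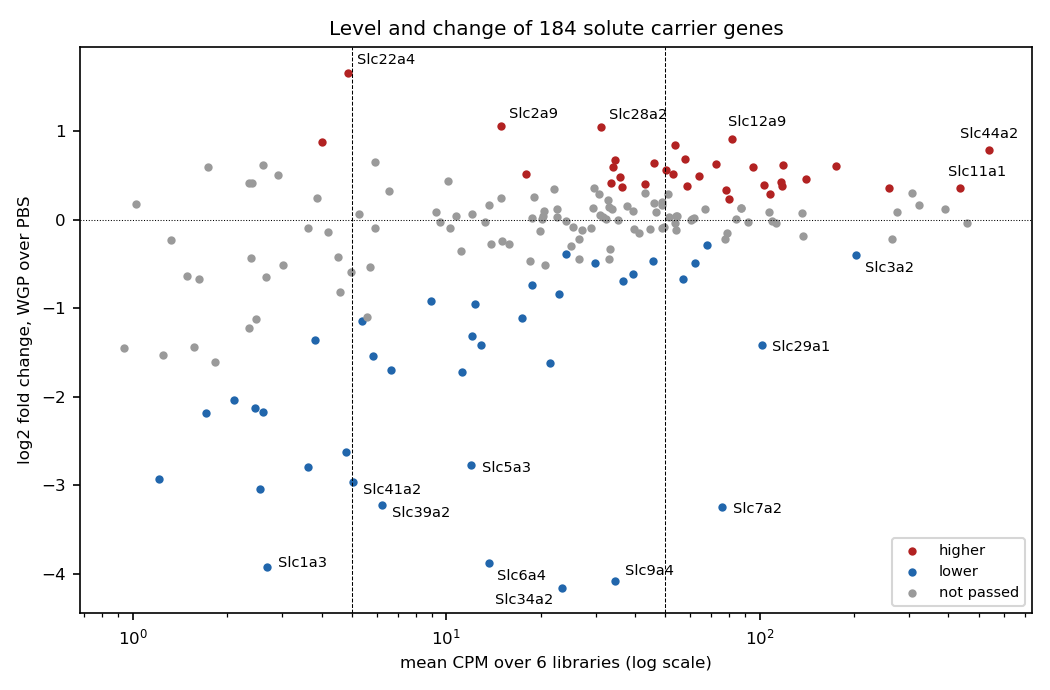
Log2 fold change (WGP over PBS) against the mean CPM over all 6 libraries (log scale) for the 184 solute carrier genes. Red points rose, blue points fell and grey points did not pass, and the dashed lines stand at 5 and 50 CPM. Slc7a2 and Slc29a1 are the 2 genes above 50 CPM that were more than 2-fold lower.

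To set levels between genes, CPM were divided by the exon length in kilobases. The most abundant carrier on this scale was Slc25a5, the ADP/ATP carrier of the inner mitochondrial membrane, with 207 ± 2.72 after WGP and 186 ± 4.16 after PBS CPM per kb. Next came Slc11a1, which pumps divalent metal ions out of the phagosome, with 132 ± 11.99 after WGP and 103 ± 4.54 after PBS. The mitochondrial phosphate carrier Slc25a3 had 73.3 ± 2.66 after WGP and 67.4 ± 1.44 after PBS, and the choline transporter-like gene Slc44a2 78.4 ± 7.52 after WGP and 45.5 ± 6.27 after PBS. The lactate exporter Slc16a3 had 63.7 ± 13.9 after WGP and 51.7 ± 11.7 after PBS CPM per kb, the amino acid exchanger heavy chain Slc3a2 49.7 ± 5.15 after WGP and 65.6 ± 4.65 after PBS, and the taurine transporter Slc6a6 53.5 ± 1.48 after WGP and 54.999 ± 3.34 after PBS. The others among the 12 highest were the scaffold gene Slc9a3r1, Slc15a3, Slc25a45, Slc39a7 and Slc2a6, with group means between 29.2 and 72.6 CPM per kb. Of these 12 genes 4 rose (Slc11a1, Slc44a2, Slc25a45 and Slc2a6) and 1 fell (Slc3a2). Among all genes tested 15.2% rose and 15.7% fell, and among those with a mean of at least 50 CPM 32.8% rose and 11.9% fell. Slc25a5 has close copies in the genome, so its reads are less certain.

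The amino acid class, formed by family, takes in carriers of taurine, creatine and neurotransmitters, of which 3 of 5 were lower. With 27 members the whole class had 4 higher and 8 lower genes and a median log2 fold change of -0.28. These are 14.8% and 29.6% of the class, where 15.2% of all genes tested were higher and 15.7% lower. Slc1a3 and Slc6a8, counted among the 8, had met the level rule in the PBS libraries alone and so had to be lower to enter. Slc7a2, the cationic amino acid transporter that brings arginine into activated macrophages (ENSMUSG00000031596, chromosome 8, 40862396 to 40922308), had 5.78, 25.3 and 12.3 CPM in the WGP libraries, against 152, 157 and 103 CPM in the PBS libraries, the libraries given in the order of their replicate numbers. Every WGP library lay below every PBS library (log2 fold change -3.24 ± 0.60, adjusted p = 0.018). The call was lost without WGP replicate 3 or PBS replicate 1 or 2 (adjusted p between 0.063 and 0.068) and with the Y-linked covariate (adjusted p = 0.0504). The 6 libraries had the same order in Slc7a2 as in the summed alveolar macrophage markers, lowest in WGP replicate 1 and highest in PBS replicate 2, and the part of those cells was not tested. Slc7a1, a related arginine carrier named after its values were seen, did not pass (0.12 ± 0.11, adjusted p = 0.42). Its levels were 35.2 ± 3.04 CPM after WGP and 32.3 ± 1.42 CPM after PBS.

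Both chains of the large neutral amino acid exchanger were lower. Slc3a2, the heavy chain CD98 that escorts several light chains to the membrane, had 186, 154 and 186 CPM in the WGP libraries, against 221, 250.3 and 222 CPM in the PBS libraries (log2 fold change -0.40 ± 0.09, adjusted p = 0.0068). Slc7a5, the leucine-carrying light chain LAT1, had 13.5, 14.9 and 13.9 CPM in the WGP libraries, against 24.9, 19.7 and 25.7 CPM in the PBS libraries (log2 fold change -0.73 ± 0.15, adjusted p = 0.0036). In both genes the groups did not overlap. The cystine-glutamate exchanger light chain Slc7a11 had 8.42, 18.7 and 19.2 CPM in the WGP libraries, against 20.4, 28.8 and 15.1 CPM in the PBS libraries, which overlap, and did not pass (-0.47 ± 0.37, adjusted p = 0.39). The glutamine carrier Slc1a5 (-0.02 ± 0.07, adjusted p = 0.84) and the taurine transporter Slc6a6 (-0.04 ± 0.07, adjusted p = 0.72) did not pass either.

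The 4 increases of the class lay in lysosomal, sodium-coupled and large neutral amino acid carriers. Slc38a9, the lysosomal arginine sensor that signals to mTORC1, had 65.8, 54.9 and 65.3 CPM in the WGP libraries, against 40.2, 48.2 and 41.9 CPM in the PBS libraries (log2 fold change 0.51 ± 0.11, adjusted p = 0.0046). The glutamine importer Slc38a1 rose, with 162 ± 10.9 CPM after WGP and 118 ± 11.6 CPM after PBS (0.45 ± 0.09, adjusted p = 0.0031), and so did the neutral amino acid carrier Slc43a2, with 289.9 ± 21.6 CPM after WGP and 226 ± 22.04 CPM after PBS (0.36 ± 0.09, adjusted p = 0.011). With library sizes alone Slc43a2 did not pass (adjusted p = 0.0555). Slc36a1, the lysosomal proton-coupled amino acid exporter, rose by only 0.23 on the log2 scale, near the threshold (adjusted p = 0.048). That call was lost without WGP replicate 1 or 2 or PBS replicate 1, 2 or 3 (adjusted p between 0.071 and 0.15) and (adjusted p in brackets) with DESeq2 (0.0583), with the Y-linked covariate (0.169), with the filter of 1 CPM in 3 libraries (0.0535), without a low-count filter (0.062) and with library sizes alone (0.262). Slc38a7, a lysosomal glutamine and asparagine exporter, went the other way and fell (-0.61 ± 0.10, adjusted p = 0.0011).

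The remaining decreases of the class were in carriers of the Slc1 and Slc6 families that are best known from neurons and barrier tissues. The serotonin transporter Slc6a4 (ENSMUSG00000020838, chromosome 11, 76998603 to 77032340) had 0.786, 2.85 and 1.53 CPM in the WGP libraries, against 30.9, 29.5 and 16.3 CPM in the PBS libraries. Its groups were far apart (log2 fold change -3.88 ± 0.47, adjusted p = 0.0012). The creatine transporter Slc6a8 fell, with 0.548 ± 0.368 CPM after WGP and 4.54 ± 1.44 CPM after PBS (-3.04 ± 0.58, adjusted p = 0.0028). The noradrenaline transporter Slc6a2 (-2.03 ± 0.55, adjusted p = 0.017) and the glutamate transporter Slc1a3 (-3.92 ± 1.13, adjusted p = 0.036), named to complete the 8 decreases, were under 8 CPM in each library. The call of Slc6a2 was lost without PBS replicate 1 (adjusted p = 0.13) and with limma-voom (adjusted p = 0.0535). That of Slc1a3 was lost without WGP replicate 1 or 2 or PBS replicate 1 or 3 (adjusted p between 0.055 and 0.12) and (adjusted p in brackets) with the Y-linked covariate (0.134), with limma-voom (0.223) and without a low-count filter (0.0715). Without PBS replicate 1 the number of lower amino acid carriers was 5 in place of 8. It was also 5 among members with a mean of at least 5 CPM.

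Promoter windows of RefSeq on GRCm38.p6, from 250 bases before a transcript start to 50 bases after it, were found for 138 members (183 windows), and those of Slc7a11 and Slc36a1 are shown since they hold letters of well-known control elements of amino acid transport and of lysosomal genes. Capitals mark the matches. In Slc7a11 (chr3:50443564-50443863, minus strand) they are TGATGNAA, the core of the amino acid response element bound by ATF4, read on both strands from positions -66 and -47 before the start. In Slc36a1 (chr11:55204090-55204389, plus strand) they are TCACGTGA, the centre of the CLEAR element bound by TFEB and TFE3, from position -4, and Slc36a1 itself passed only narrowly.
Slc7a11: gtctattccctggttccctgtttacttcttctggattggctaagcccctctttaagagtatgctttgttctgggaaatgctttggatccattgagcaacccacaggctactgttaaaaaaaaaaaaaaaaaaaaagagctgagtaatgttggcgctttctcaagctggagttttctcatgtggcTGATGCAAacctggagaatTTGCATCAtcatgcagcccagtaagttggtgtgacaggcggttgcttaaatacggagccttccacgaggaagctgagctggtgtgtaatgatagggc
Slc36a1: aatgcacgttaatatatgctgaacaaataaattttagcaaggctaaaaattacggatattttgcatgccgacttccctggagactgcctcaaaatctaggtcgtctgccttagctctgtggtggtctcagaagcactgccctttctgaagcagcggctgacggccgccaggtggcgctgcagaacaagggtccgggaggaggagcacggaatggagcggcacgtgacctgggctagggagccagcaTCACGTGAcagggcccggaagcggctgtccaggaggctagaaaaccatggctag
The first motif was in 3.97% of all 32851 windows and 3.83% of the members' windows, the second in 0.974% and 2.19%. TCACGTGA was found in 4 members and TGATGNAA in 6. These matches are a description of the letters only. The transcript of Atf4 did not pass (-0.14 ± 0.07, adjusted p = 0.16), while Tfeb (0.50 ± 0.11, adjusted p = 0.0051) and Tfe3 (0.48 ± 0.07, adjusted p = 0.0005) rose.

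Sugar carriers, with 13 members, had 3 higher (23.1%) and 2 lower (15.4%) genes, against 15.2% and 15.7% of all genes tested, so the share of lower genes was that of all genes. Slc2a1, the main glucose transporter of activated macrophages, had 111, 105 and 115 CPM in the WGP libraries, against 98.5, 122 and 90.3 CPM in the PBS libraries. Its groups overlapped and it did not pass (log2 fold change 0.09 ± 0.11, adjusted p = 0.56). The high-affinity glucose transporter Slc2a3 varied widely, with 26.3, 49.9 and 79.3 CPM in the WGP libraries, against 58.4, 79.3 and 31.2 CPM in the PBS libraries, and did not pass (-0.12 ± 0.56, adjusted p = 0.9). Increases were found in other members of the Slc2 family. Slc2a6, a GLUT of lysosomes that inflammatory stimuli are known to induce (ENSMUSG00000036067, chromosome 2, 27021363 to 27027998), had 142, 129 and 159 CPM in the WGP libraries, against 80.2, 100.1 and 101 CPM in the PBS libraries (log2 fold change 0.61 ± 0.11, adjusted p = 0.0019). Slc2a9, which carries urate (ENSMUSG00000005107, chromosome 5, 38349273 to 38503143), had 19.1, 20.6 and 20.6 CPM in the WGP libraries, against 7.14, 13.2 and 8.74 CPM in the PBS libraries (log2 fold change 1.05 ± 0.21, adjusted p = 0.0039). In both genes all WGP libraries lay above all PBS libraries. Slc50a1, a sugar transporter of the SWEET family, rose (0.41 ± 0.11, adjusted p = 0.018), a call lost without WGP replicate 1 or PBS replicate 1 or 2 (adjusted p between 0.051 and 0.09) and with library sizes alone (adjusted p = 0.0623).

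The decreases among sugar carriers were in Slc5a3 and Slc2a8. Slc5a3, the sodium-coupled carrier of myo-inositol, an osmolyte, had 3.93, 2.69 and 2.57 CPM in the WGP libraries, against 18.997, 28.5 and 15.5 CPM in the PBS libraries (log2 fold change -2.77 ± 0.27, adjusted p = 7.6e-05). The groups were far apart, and 318 bases of its exons overlap other counted genes (Mrps6 and Gm49711). Slc2a8, an intracellular GLUT, fell (-0.92 ± 0.24, adjusted p = 0.014), which was not called without WGP replicate 3 or PBS replicate 2 (adjusted p between 0.055 and 0.064), so that 1 sugar carrier in place of 2 was then lower. The glucose-6-phosphate exchanger family Slc37 did not pass in any of its 4 members, among them Slc37a2 (-0.45 ± 0.17, adjusted p = 0.075), which was lower with library sizes alone (adjusted p = 0.0459).

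Of 9 carboxylate carriers 4 fell (44.4%, against 15.7% of all genes tested) and 1 rose (11.1%, against 15.2%). Slc16a14, counted among the 4, had met the level rule in the PBS libraries alone and so had to be lower to enter. Slc16a1, the lactate and pyruvate carrier MCT1, was low, with 3.14, 3.80 and 3.12 CPM in the WGP libraries, against 6.80, 6.85 and 8.65 CPM in the PBS libraries (log2 fold change -1.15 ± 0.26, adjusted p = 0.007). With the Y-linked covariate it did not pass (adjusted p = 0.051). Slc16a3, the lactate exporter MCT4 of glycolytic cells, had 330.1, 269.5 and 416 CPM in the WGP libraries, against 250.1, 346 and 229 CPM in the PBS libraries. Its groups overlapped (log2 fold change 0.30 ± 0.22, adjusted p = 0.36). The dicarboxylate carrier Slc13a3, which takes up succinate and related acids, fell, with 7.01 ± 2.23 CPM after WGP and 18.8 ± 3.47 CPM after PBS (-1.42 ± 0.25, adjusted p = 0.0018). The Slc16 family members Slc16a14 (-2.18 ± 0.54, adjusted p = 0.011) and Slc16a9 (-2.13 ± 0.46, adjusted p = 0.0056), both under 6 CPM in each library, fell too, Slc16a14 not without PBS replicate 1 (adjusted p = 0.079). The increase was that of Slc16a10, an aromatic amino acid carrier of this family, at 117 ± 3.56 CPM after WGP and 89.4 ± 7.36 CPM after PBS (0.39 ± 0.08, adjusted p = 0.0041). Of the partner chains that bring MCTs to the membrane, Emb rose, with 418, 408 and 415 CPM in the WGP libraries, against 208, 239 and 239 CPM in the PBS libraries (log2 fold change 0.86 ± 0.07, adjusted p = 3.7e-05), and Bsg did not pass (-0.25 ± 0.09, adjusted p = 0.054).

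**Figure D3:**
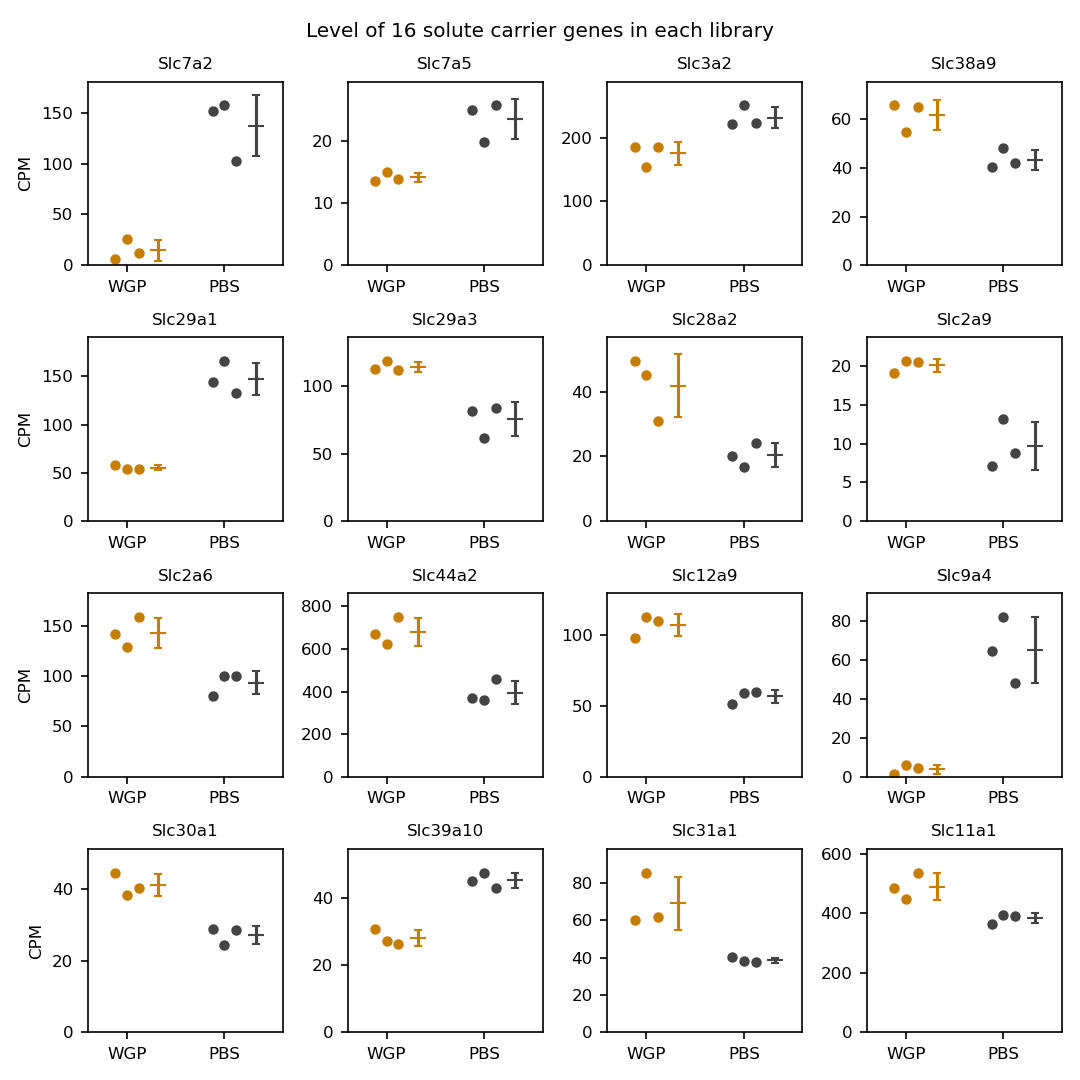
CPM of 16 solute carrier genes in each library, WGP in orange on the left and PBS in dark grey on the right, with 1 point per library and the mean ± SD (n = 3) beside the points. In all 16 genes the 3 WGP libraries lie wholly above or wholly below the 3 PBS libraries. The 16 were picked among members called higher or lower, so this separation is no result about the carriers. Of all genes tested, 23.2% lay wholly above and 24.9% wholly below. Slc7a2 and Slc9a4 show the largest relative differences.

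Mitochondrial carriers of the Slc25 family, the largest class with 37 members, had 9 higher genes and none lower. Its share of higher genes was 24.3%, against 15.2% of all genes tested, and no member of it passed in the other direction, against 15.7%. The shares of all genes vary with level. From a mean of 50 CPM upwards 32.8% rose and 11.9% fell, and between 5 and 50 CPM 9.28% rose and 17.1% fell. The median log2 fold change was 0.09. With library sizes alone 6 were higher and 0 lower, and without PBS replicate 1 or WGP replicate 3 the number of higher genes was 5. The summed level was 1979 ± 19.5 CPM after WGP and 1751 ± 12.5 CPM after PBS, with every WGP library above every PBS library.

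Carriers of amino acids and of the malate-aspartate shuttle were among the increases. Slc25a12, an aspartate-glutamate exchanger of that shuttle (ENSMUSG00000027010, chromosome 2, 71271063 to 71367749), had 68.4, 76.04 and 68.8 CPM in the WGP libraries, against 43.4, 42.5 and 46.4 CPM in the PBS libraries (log2 fold change 0.69 ± 0.09, adjusted p = 0.00027). Slc25a13, its close relative, did not pass (0.44 ± 0.22, adjusted p = 0.15). Slc25a11, the oxoglutarate-malate exchanger of the same shuttle, rose (0.34 ± 0.10, adjusted p = 0.021), a call lost without WGP replicate 2 or 3 or PBS replicate 1 or 2 (adjusted p between 0.059 and 0.087). The glutamate carrier Slc25a22 had 51.2, 65.1 and 63.04 CPM in the WGP libraries, against 40.6, 38.4 and 42.8 CPM in the PBS libraries (log2 fold change 0.56 ± 0.11, adjusted p = 0.0031). Slc25a44, known to carry branched-chain amino acids, rose, with 55.9 ± 9.87 CPM after WGP and 35.9 ± 2.04 CPM after PBS (0.64 ± 0.13, adjusted p = 0.0035).

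Increases were also found in 2 carriers linked to iron and heme synthesis. Slc25a28, the iron importer mitoferrin 2, had 66.2 ± 2.45 CPM after WGP and 50.7 ± 4.20 CPM after PBS (0.38 ± 0.09, adjusted p = 0.0087), and Slc25a38, the glycine carrier for heme synthesis, 48.9 ± 4.75 CPM after WGP and 36.9 ± 2.62 CPM after PBS (0.40 ± 0.11, adjusted p = 0.015). The call of Slc25a38 was lost without WGP replicate 3 or PBS replicate 1 (adjusted p between 0.062 and 0.076). Mitoferrin 1, Slc25a37, did not pass (0.13 ± 0.12, adjusted p = 0.44). The others that rose were Slc25a45 (0.38 ± 0.07, adjusted p = 0.0018), Slc25a16, linked to coenzyme A transport (0.51 ± 0.18, adjusted p = 0.046), and Slc25a35 (0.88 ± 0.30, adjusted p = 0.045). Slc25a16 lost its call without WGP replicate 1, 2 or 3 or PBS replicate 1 or 2 (adjusted p between 0.077 and 0.18). Slc25a35 lost it without WGP replicate 1, 2 or 3 or PBS replicate 1, 2 or 3 (adjusted p between 0.051 and 0.13) and (adjusted p in brackets) with the Y-linked covariate (0.107), without a low-count filter (0.0629) and with library sizes alone (0.0755). With library sizes alone Slc25a11 and Slc25a16 did not pass (adjusted p = 0.09 and 0.103). Of the exon bases of Slc25a35, 1151 are shared with Rangrf. Slc25a11, Slc25a13, Slc25a16, Slc25a28, Slc25a35, Slc25a37 and Slc25a38 were named after their values were seen.

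The abundant ADP/ATP and phosphate carriers did not pass the test. Slc25a5 had 345, 341 and 336 CPM in the WGP libraries, against 312, 299 and 305 CPM in the PBS libraries. Its groups did not overlap, but its change missed the threshold (log2 fold change 0.16 ± 0.06, adjusted p = 0.079). The phosphate carrier Slc25a3 (0.12 ± 0.07, adjusted p = 0.19) and the citrate carrier Slc25a1 (0.06 ± 0.13, adjusted p = 0.78) did not pass. Slc25a42, a coenzyme A carrier and the lowest of the class in fold change, had under 4 CPM in each library and did not pass (-1.12 ± 0.45, adjusted p = 0.083).

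**Figure D4:**
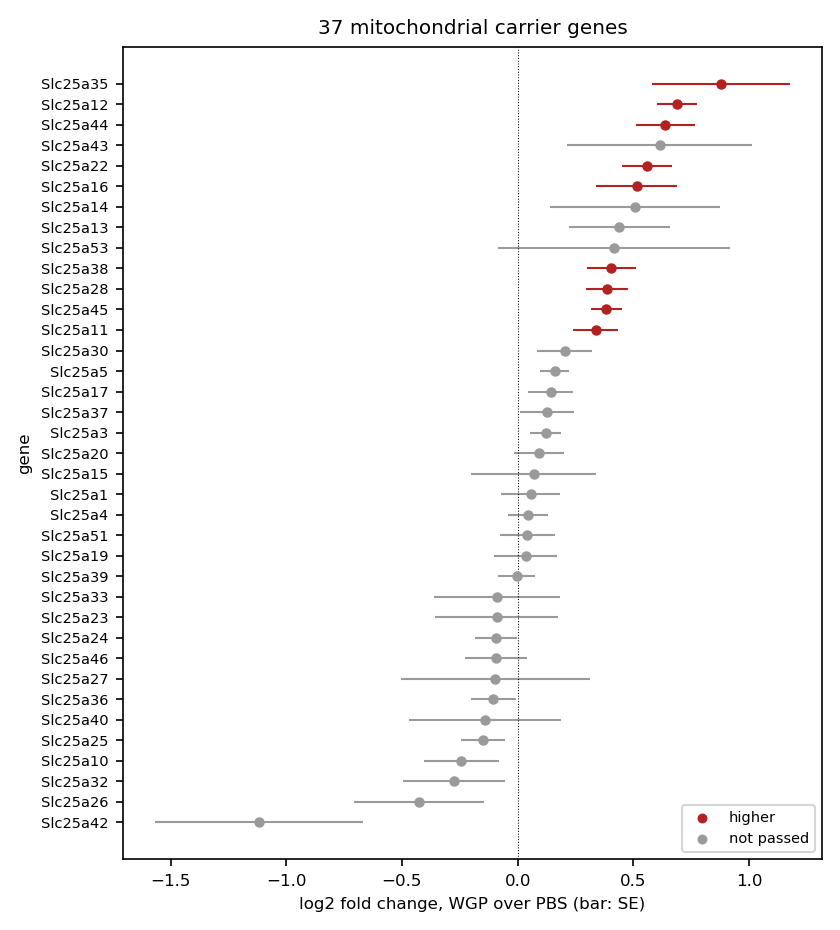
Log2 fold change (WGP over PBS) with its SE for the 37 mitochondrial carrier genes, ordered by size. The 9 genes in red rose at an adjusted p under 0.05, from Slc25a11 (0.34) to Slc25a35 (0.88), and the grey genes did not pass. No gene of this class was called lower, though in 3 of them every WGP library lay below every PBS library.

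Metal carriers, with 28 members, had 3 higher (10.7%) and 6 lower (21.4%) genes, against 15.2% and 15.7% of all genes tested. Slc11a1 (ENSMUSG00000026177, chromosome 1, 74375195 to 74386062), the NRAMP1 transporter that withdraws iron and manganese from phagosomes, had 485, 447 and 536 CPM in the WGP libraries, against 363, 392 and 392 CPM in the PBS libraries. All WGP libraries lay above all PBS libraries (log2 fold change 0.36 ± 0.08, adjusted p = 0.007). C57Bl/6 mice are known to carry a variant of this protein that impairs its function. Its relative Slc11a2 (DMT1) did not pass (-0.13 ± 0.16, adjusted p = 0.57), nor did the heme carrier Slc48a1 (-0.16 ± 0.08, adjusted p = 0.19). Slc40a1, ferroportin, the only known iron exporter of mammalian cells, had 17.6, 26.9 and 39.7 CPM in the WGP libraries, against 53.2, 29.6 and 31.9 CPM in the PBS libraries, with overlapping groups (log2 fold change -0.45 ± 0.38, adjusted p = 0.43). Slc31a1, the copper importer CTR1 (ENSMUSG00000066150, chromosome 4, 62360727 to 62391769), had 59.9, 85.3 and 61.8 CPM in the WGP libraries, against 40.1, 37.99 and 37.8 CPM in the PBS libraries. The WGP libraries lay wholly above (log2 fold change 0.84 ± 0.13, adjusted p = 0.0011), while its paralog Slc31a2 did not pass (-0.01 ± 0.12, adjusted p = 0.98, named after its values were seen).

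Zinc carriers belong to 2 families. Slc30 proteins take zinc out of the cytosol and Slc39 proteins bring it in. Slc30a1, the zinc exporter of the plasma membrane (ENSMUSG00000037434, chromosome 1, 191906767 to 191913247), had 44.5, 38.3 and 40.3 CPM in the WGP libraries, against 28.8, 24.3 and 28.4 CPM in the PBS libraries (log2 fold change 0.59 ± 0.11, adjusted p = 0.0027). Of 13 Slc39 genes 4 fell (30.8%, against 15.7% of all genes tested) and none rose, with a median log2 fold change of -0.22. Slc39a12, counted among the 4 and among the lower metal carriers, had met the level rule in the PBS libraries alone and so had to be lower to enter. The most abundant of these 4 per length was Slc39a10, which had 30.8, 27.2 and 26.4 CPM in the WGP libraries, against 45.2, 47.6 and 43.2 CPM in the PBS libraries (log2 fold change -0.69 ± 0.10, adjusted p = 0.00074). Slc39a14, which also imports iron not bound to transferrin, fell, with 16.3 ± 3.26 CPM after WGP and 29.3 ± 3.32 CPM after PBS (-0.84 ± 0.16, adjusted p = 0.003). Slc39a2 (-3.22 ± 0.92, adjusted p = 0.048) and Slc39a12 (-2.93 ± 0.91, adjusted p = 0.031, named after its values were seen) had low counts. Their calls were lost, for Slc39a2 without WGP replicate 3 or PBS replicate 1, 2 or 3 (adjusted p between 0.11 and 0.13) and (adjusted p in brackets) with DESeq2 (0.059), with the Y-linked covariate (0.114) and without a low-count filter (0.0937), and for Slc39a12 without WGP replicate 3 or PBS replicate 1 or 2 (adjusted p between 0.086 and 0.14). Slc39a8, known in macrophages as a target of NF-κB, was below 4 CPM and did not pass (-1.61 ± 0.57, adjusted p = 0.053), but was called lower (adjusted p in brackets) with DESeq2 (0.0225), with the filter of 1 CPM in 3 libraries (0.0477), without a low-count filter (0.048) and with library sizes alone (0.0443). Slc39a7, which releases zinc from the endoplasmic reticulum and was the most abundant Slc39 gene per length, had 109 ± 0.203 CPM after WGP and 109.6 ± 4.02 CPM after PBS (-0.01 ± 0.07, adjusted p = 0.89). Among the other Slc30 genes Slc30a4 fell, with 2.99 ± 0.416 CPM after WGP and 8.68 ± 1.92 CPM after PBS (-1.54 ± 0.27, adjusted p = 0.0018) and the remaining 4 did not pass. The magnesium carrier Slc41a2 completed the 6 decreases, with 1.35, 1.21 and 0.876 CPM in the WGP libraries, against 9.28, 9.55 and 7.98 CPM in the PBS libraries (log2 fold change -2.96 ± 0.30, adjusted p = 7.9e-05).

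The promoter windows of the metal exporter Slc30a1 and the importer Slc31a1, which both rose, are shown since they hold letters read by a metal sensor and by a macrophage factor. In Slc30a1 (chr1:191906531-191906830, plus strand) the capitals mark the core of the metal response element bound by MTF1, searched as TGCACNC or TGCGCNC on both strands, from positions -43 and 31. In Slc31a1 (chr4:62360451-62360750, plus strand) they mark GAGGAAGT, a site read by PU.1, from position -249. No 2 of the motifs searched overlapped in these windows.
Slc30a1: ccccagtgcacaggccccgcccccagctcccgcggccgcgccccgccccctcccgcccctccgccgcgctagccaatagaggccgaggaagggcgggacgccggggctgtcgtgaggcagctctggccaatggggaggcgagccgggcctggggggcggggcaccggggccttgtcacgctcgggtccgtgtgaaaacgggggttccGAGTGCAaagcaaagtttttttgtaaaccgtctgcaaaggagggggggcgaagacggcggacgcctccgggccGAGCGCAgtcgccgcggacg
Slc31a1: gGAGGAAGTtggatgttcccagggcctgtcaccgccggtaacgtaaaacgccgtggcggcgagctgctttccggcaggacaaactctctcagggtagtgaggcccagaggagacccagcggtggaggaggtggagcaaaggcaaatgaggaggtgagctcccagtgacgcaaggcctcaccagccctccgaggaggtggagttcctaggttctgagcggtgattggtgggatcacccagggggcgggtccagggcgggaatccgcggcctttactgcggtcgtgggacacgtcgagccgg
The short metal element core was in 25.7% of all windows and 32.2% of the members' windows, so a match is common. GAGGAAGT was in 3.20% and 2.19%. The transcript of Mtf1 did not pass (0.10 ± 0.10, adjusted p = 0.48).

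Ion carriers, with 23 members, had 7 higher and 7 lower genes (30.4% each, against 15.2% and 15.7% of all genes tested) and a median log2 fold change of 0.17. The higher count was 4 without WGP replicate 1 or 3 or PBS replicate 1 and with library sizes alone, and the lower count 4 without WGP replicate 3 or PBS replicate 1 or 2. Cation-chloride cotransporters, which set cell volume and chloride, changed in both directions. Slc12a9 (ENSMUSG00000037344, chromosome 5, 137314558 to 137333597) had 97.7, 112 and 109 CPM in the WGP libraries, against 51.1, 58.8 and 59.8 CPM in the PBS libraries (log2 fold change 0.91 ± 0.09, adjusted p = 7.6e-05). Slc12a7, a potassium-chloride exporter, fell, with 43.98 ± 2.84 CPM after WGP and 69.9 ± 12.3 CPM after PBS (-0.67 ± 0.13, adjusted p = 0.0028). The related Slc12a4 fell (-0.49 ± 0.13, adjusted p = 0.018) and the sodium-potassium-chloride importer Slc12a2 rose (0.42 ± 0.12, adjusted p = 0.025), calls lost without WGP replicate 2 or 3 or PBS replicate 1 (adjusted p between 0.057 and 0.092) for Slc12a4 and without WGP replicate 1 or 3 or PBS replicate 1 or 2 (adjusted p between 0.073 and 0.086) for Slc12a2. Wnk1, the kinase that controls these cotransporters, fell (-0.38 ± 0.07, adjusted p = 0.0025).

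Sodium-proton exchangers, which regulate the pH of the cytosol and of endosomes, changed in both directions too. Slc9a4 (ENSMUSG00000026065, chromosome 1, 40580081 to 40630725), best known from the stomach, had 1.23, 6.02 and 4.21 CPM in the WGP libraries, against 64.6, 82.3 and 48.2 CPM in the PBS libraries. The groups were far apart (log2 fold change -4.08 ± 0.56, adjusted p = 0.006), and the 6 libraries stood in the order of their summed alveolar macrophage markers, as in Slc7a2. Slc9a2 fell at low counts, with 0.902 ± 0.711 CPM after WGP and 6.32 ± 1.82 CPM after PBS (-2.79 ± 0.60, adjusted p = 0.0063). The Golgi exchanger Slc9a7 fell (-0.96 ± 0.26, adjusted p = 0.017), but not without PBS replicate 1 or 2 (adjusted p between 0.058 and 0.062). Slc9a8, also of the Golgi, rose (0.48 ± 0.14, adjusted p = 0.027), but not without WGP replicate 1 or 3 or PBS replicate 1, 2 or 3 (adjusted p between 0.069 and 0.11). The endosomal Slc9a9 did not pass (0.17 ± 0.10, adjusted p = 0.26). Slc9a3r2, a scaffold of these exchangers and no carrier, fell, with 11.02 ± 3.94 CPM after WGP and 23.8 ± 3.08 CPM after PBS (-1.11 ± 0.23, adjusted p = 0.0056), while its relative Slc9a3r1 did not pass (0.08 ± 0.07, adjusted p = 0.43).

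Other ion carriers that rose were Slc8a1, the sodium-calcium exchanger NCX1, with 88.7, 91.1 and 85.3 CPM in the WGP libraries, against 58.6, 52.4 and 60.3 CPM in the PBS libraries (log2 fold change 0.63 ± 0.08, adjusted p = 0.00036), and the sulfate carrier Slc26a2 (0.49 ± 0.11, adjusted p = 0.0069). With the Y-linked covariate Slc26a2 did not pass (adjusted p = 0.0503). The bicarbonate exchanger Slc4a2 fell (-0.29 ± 0.08, adjusted p = 0.025), not without WGP replicate 1 or 3 or PBS replicate 2 or 3 (adjusted p between 0.065 and 0.081), and 1141 of its exon bases are shared with Fastk. With the Y-linked covariate Slc4a2 and Slc9a8 did not pass (adjusted p = 0.0973 and 0.118). With library sizes alone Slc9a8 and Slc12a2 did not (adjusted p = 0.0713 and 0.0623). Slc4a2, Slc9a8, Slc12a2 and Slc12a4 were named after their values were seen.

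Nucleoside carriers changed in 4 of 5 members, 2 in each direction (40% each, against 15.2% higher and 15.7% lower among all genes tested). Each of these counts was the same in every refit without 1 library. Slc29a1, the equilibrative nucleoside transporter ENT1 of the plasma membrane (ENSMUSG00000023942, chromosome 17, 45585200 to 45599606), had 58.04, 53.7 and 54.3 CPM in the WGP libraries, against 145, 166 and 133 CPM in the PBS libraries. This was the smallest p-value of all members (log2 fold change -1.42 ± 0.09, adjusted p = 1.1e-05). Slc29a3, the lysosomal ENT3 that exports nucleosides from digested nucleic acids (ENSMUSG00000020100, chromosome 10, 60712072 to 60752794), had 113, 119 and 112 CPM in the WGP libraries, against 81.7, 61.4 and 83.96 CPM in the PBS libraries. It was higher in all 3 WGP libraries (log2 fold change 0.60 ± 0.11, adjusted p = 0.0027). Slc28a2, a sodium-coupled importer of purine nucleosides, had 49.5, 45.3 and 31.03 CPM in the WGP libraries, against 20.2, 16.7 and 24.1 CPM in the PBS libraries (log2 fold change 1.04 ± 0.19, adjusted p = 0.0035). The purine nucleobase carrier Slc43a3 fell, with 5.24 ± 0.838 CPM after WGP and 17.2 ± 2.92 CPM after PBS (-1.72 ± 0.20, adjusted p = 0.00018). The summed level of the class was 218 ± 11.9 CPM after WGP and 263 ± 5.23 CPM after PBS, a sum in which Slc29a1 and Slc29a3 hold most reads.

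Among 10 carriers of vitamins and choline 1 rose and 2 fell, shares near the 15.2% and 15.7% of all genes tested. Slc44a2 (ENSMUSG00000057193, chromosome 9, 21320698 to 21355028), a choline transporter-like protein, had 669, 621 and 750.3 CPM in the WGP libraries, against 368, 359.6 and 458 CPM in the PBS libraries. Every WGP library lay above every PBS library (log2 fold change 0.78 ± 0.11, adjusted p = 0.00048), and Slc44a2 had the most reads of all members. Its relative Slc44a1 did not pass (-0.34 ± 0.13, adjusted p = 0.067, named after its values were seen), but was lower with the Y-linked covariate (adjusted p = 0.0163) and with library sizes alone (adjusted p = 0.026). The riboflavin carrier Slc52a3 fell, with 6.96 ± 1.57 CPM after WGP and 17.3 ± 3.80 CPM after PBS (-1.31 ± 0.23, adjusted p = 0.0016), and so did Slc23a2, which takes up ascorbate, with 51.8 ± 3.93 CPM after WGP and 72.5 ± 6.52 CPM after PBS (-0.48 ± 0.10, adjusted p = 0.0038). The folate and heme carrier Slc46a1 was low and did not pass (-0.43 ± 0.43, adjusted p = 0.48).

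Fatty acid transport genes of the Slc27 family fell in 3 of 3 members, where 15.7% of all genes tested were lower. Slc27a1, an acyl-CoA synthetase that drives fatty acid uptake, had 12.7, 8.77 and 10.2 CPM in the WGP libraries, against 31.8, 32.96 and 32.2 CPM in the PBS libraries (log2 fold change -1.61 ± 0.15, adjusted p = 5.7e-05). Slc27a3 fell, with 3.14 ± 0.734 CPM after WGP and 10.2 ± 1.73 CPM after PBS (-1.69 ± 0.27, adjusted p = 0.00097). Slc27a4, the most abundant of the 3 per length, fell by less (-0.46 ± 0.14, adjusted p = 0.033). Its call was lost without WGP replicate 1, 2 or 3 or PBS replicate 1 or 2 (adjusted p between 0.06 and 0.099). None of the 3 Slc10 genes, of a family named for bile acid transport, passed.

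Carriers of organic ions changed in 5 of 7 members, 2 higher (28.6%) and 3 lower (42.9%), against 15.2% and 15.7% of all genes tested. Slc22a4, which takes up the antioxidant ergothioneine (ENSMUSG00000020334, chromosome 11, 53983123 to 54028090), had the highest fold change of all members, at low counts, with 8.31, 5.81 and 8.10 CPM in the WGP libraries, against 2.19, 1.40 and 3.42 CPM in the PBS libraries (log2 fold change 1.66 ± 0.36, adjusted p = 0.0055). Slc22a15 rose, with 42.3 ± 5.70 CPM after WGP and 26.6 ± 3.96 CPM after PBS (0.67 ± 0.14, adjusted p = 0.0046). Slc22a17, known as a receptor for lipocalin 2 rather than as a carrier, fell, with 1.33 ± 0.709 CPM after WGP and 8.22 ± 1.78 CPM after PBS (-2.62 ± 0.40, adjusted p = 0.00076). Slc22a23 (-2.17 ± 0.55, adjusted p = 0.013) and Slc22a18 (-1.36 ± 0.36, adjusted p = 0.015) fell, Slc22a23 not without PBS replicate 1 (adjusted p = 0.065) and Slc22a18 not without PBS replicate 1 or 2 (adjusted p between 0.054 and 0.067). The 3 genes that fell were each under 10 CPM in every library.

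The phosphate carrier Slc34a2, a marker of alveolar type 2 cells (ENSMUSG00000029188, chromosome 5, 53038081 to 53071664), had 0.505, 3.17 and 3.72 CPM in the WGP libraries, against 29.3, 75.7 and 27.7 CPM in the PBS libraries. It had the lowest fold change of all members (log2 fold change -4.15 ± 0.82, adjusted p = 0.021), lost without WGP replicate 2 or 3 or PBS replicate 1 (adjusted p between 0.051 and 0.067) and with limma-voom (adjusted p = 0.114). The order of the 6 libraries by Slc34a2 was that of their summed epithelial markers, 21.4, 69.7 and 76.6 CPM in the WGP libraries and 431, 758 and 346 CPM in the PBS libraries, and the part of epithelial cells was not tested. The phosphate carriers Slc20a1 and Slc20a2, which most cells use, did not pass (0.01 ± 0.11, adjusted p = 0.97 and 0.06 ± 0.25, adjusted p = 0.87, both named after their values were seen).

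None of the 3 peptide carriers passed. Slc15a3, an endolysosomal peptide and histidine carrier, had 224, 247 and 259 CPM in the WGP libraries, against 285, 334 and 233 CPM in the PBS libraries (log2 fold change -0.22 ± 0.12, adjusted p = 0.21). Its groups overlapped, and 1541 of its exon bases are shared with Tmem132a. With the Y-linked covariate it was lower (adjusted p = 0.0121). Of 6 carriers of nucleotide sugars and acetyl-CoA only Slc35a5 was called higher (0.37 ± 0.12, adjusted p = 0.039). That call was lost without WGP replicate 1, 2 or 3 or PBS replicate 1 or 3 (adjusted p between 0.069 and 0.12), with the Y-linked covariate (adjusted p = 0.253) and with library sizes alone (adjusted p = 0.123). Neither of the 2 vesicular carriers nor the urea carrier passed.

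Summed over all members, solute carriers took 9752 ± 327 CPM after WGP and 9231 ± 298 CPM after PBS. Such sums weigh long and abundant transcripts most. Every WGP library lay above every PBS library in the sums for mitochondrial carriers, metals, ions, vitamins and choline, and nucleotide sugars, and in the urea carrier. The metal sum was 1403 ± 30.5 CPM after WGP and 1307 ± 20.5 CPM after PBS, the ion sum 1095 ± 51.3 CPM after WGP and 966 ± 28.8 CPM after PBS. The sum for vitamins and choline was 862 ± 65.98 CPM after WGP and 623 ± 57.7 CPM after PBS, of which Slc44a2 was the largest part. The sums for nucleosides, for phosphate carriers and for fatty and bile acids were lower in every WGP library, the last of these at 92.5 ± 8.66 CPM after WGP and 137 ± 13.2 CPM after PBS. In the phosphate sum the difference lay in Slc34a2, with 2.46 ± 1.72 CPM after WGP and 44.2 ± 27.2 CPM after PBS. The Slc20 genes in that sum had 96.5 ± 6.21 CPM after WGP and 95.5 ± 15.2 CPM after PBS. Amino acid carriers, the class with the most reads, summed to 2095 ± 82.9 CPM after WGP and 2232 ± 79.9 CPM after PBS, with overlapping groups.

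**Figure D5:**
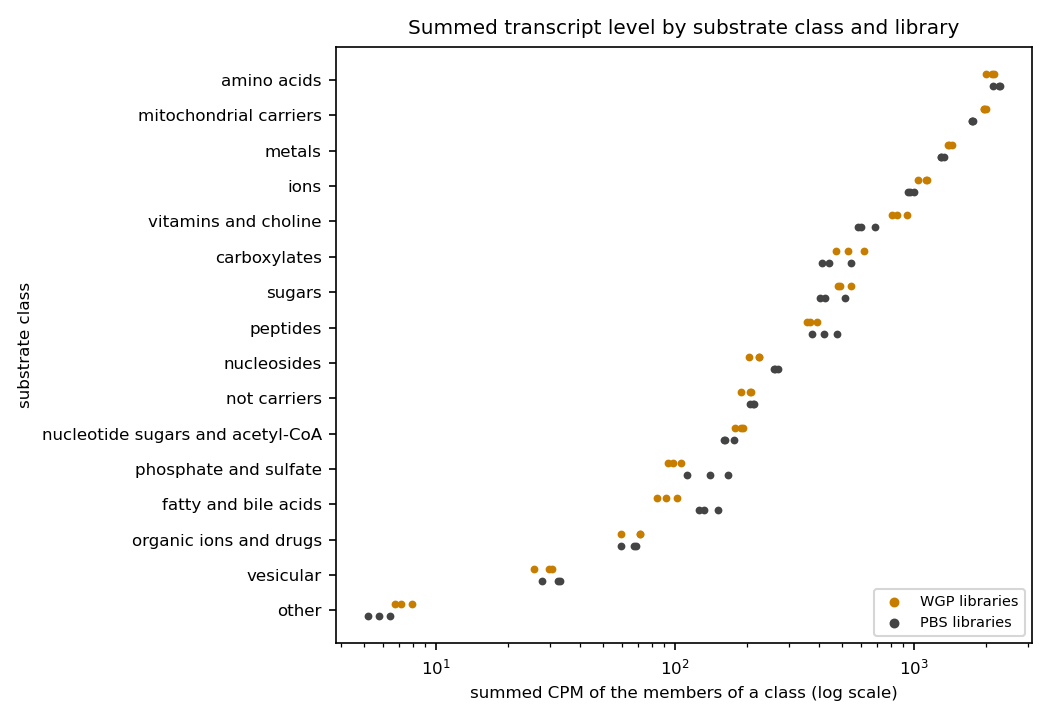
Summed CPM of the members of each substrate class (log scale) in each library, with WGP libraries in orange above PBS libraries in dark grey. Amino acid and mitochondrial carriers held the most reads. The WGP points lie to the right for mitochondrial carriers and to the left for nucleosides and for fatty and bile acids.

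Carriers outside the symbol form gave a mixed picture too. Of 41 listed, 35 were tested, 8 of them higher and 8 lower (22.9% each, against 15.2% and 15.7% of all genes tested) with 19 not passed, and the median log2 fold change was -0.02. Without PBS replicate 1, 5 were higher and 3 lower, and the lower count was 3 without PBS replicate 2, 4 without WGP replicate 2 and 5 without WGP replicate 3. Unc93b1, which escorts nucleic acid sensing Toll-like receptors to endosomes, had 1124, 1076 and 1178 CPM in the WGP libraries, against 691, 650.2 and 748 CPM in the PBS libraries (log2 fold change 0.69 ± 0.08, adjusted p = 0.00012). The heme exporter Flvcr1 had 89.5, 85.9 and 82.7 CPM in the WGP libraries, against 44.8, 47.02 and 50.6 CPM in the PBS libraries (log2 fold change 0.86 ± 0.08, adjusted p = 6.5e-05). Its relative Flvcr2 went the other way, with 2.36 ± 1.89 CPM after WGP and 48.7 ± 17.1 CPM after PBS (-4.35 ± 0.79, adjusted p = 0.016). Slco2b1, an organic anion carrier, fell, with 24.1 ± 13.6 CPM after WGP and 109 ± 2.45 CPM after PBS (-2.17 ± 0.43, adjusted p = 0.021), as did the lysosomal lipid carrier Spns1 (-0.58 ± 0.10, adjusted p = 0.0015). The mitochondrial sodium-calcium exchanger Slc8b1 rose (0.33 ± 0.08, adjusted p = 0.0083), and the pyruvate carrier subunits Mpc1 (0.03 ± 0.15, adjusted p = 0.91) and Mpc2 (-0.29 ± 0.17, adjusted p = 0.22) did not pass. These genes were picked after their values were seen.

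Of 26 partners and regulators of carriers 9 were higher (34.6%, against 15.2% of all genes tested), 4 lower (15.4%, against 15.7%) and 13 did not pass. Myc, a factor known to drive transcription of amino acid carriers such as Slc7a5, had 10.7, 24.4 and 15.3 CPM in the WGP libraries, against 59.8, 64.6 and 55.7 CPM in the PBS libraries (log2 fold change -1.83 ± 0.29, adjusted p = 0.0043). Txnip, which promotes removal of glucose transporters from the membrane, had 425, 494 and 414 CPM in the WGP libraries, against 1044, 995 and 707 CPM in the PBS libraries (log2 fold change -1.04 ± 0.15, adjusted p = 0.0019). In both genes the WGP libraries lay wholly below. Ireb2, a regulator of iron transport mRNAs, rose (0.64 ± 0.12, adjusted p = 0.0021), as did Hif1a (0.41 ± 0.10, adjusted p = 0.013) and the lysosomal mTORC1 anchor Lamtor1 (0.45 ± 0.08, adjusted p = 0.0015). These were named after their values were seen, and a link between them and the carriers was not tested.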

How the data were processed

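Raw counts per Ensembl gene in 6 libraries, 3 after WGP and 3 after PBS, were made by the authors and deposited as whole numbers. Per the submitters' processing notes HTSeq 0.10.0, FastQC 0.10.1 and the builds GRCm38 and mm10 were used, while the aligner and the strand setting are not stated in the sources used here. Without a strand setting, reads of genes with overlapping exons cannot be told apart, which touches 23 members. GENCODE M21 (GRCm38) gave symbols for 21939 of 21965 identifiers, coordinates and exon lengths.

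WGP was compared with PBS over the whole table in R 4.3.3 with edgeR 4.0.16 (genes kept by filterByExpr, TMM scaling, glmQLFit with robust = TRUE, two-sided quasi-likelihood F test, Benjamini-Hochberg over 12305 genes, adjusted p threshold 0.05). Log2 fold changes are WGP over PBS ± SE, with SE taken as the absolute change over the root of its F value. CPM in the text are TMM-normalised, except in the member rule, and errors of levels are SD with n = 3. Precision of low counts is limited by depth, 18254678 to 20346517 counts per library. Replicate pairs differed by a chi-square of 13.5 to 24.8 per degree of freedom, far above sampling noise. The gene-wise test was checked on simulated data.

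Members, classes and lists were chosen with earlier results of these data known, so no class was tested as a set. The genes named are, per class and direction, up to 4 of smallest p among those called, the 10 highest and 10 lowest fold changes at a mean of at least 5 CPM, the 12 of highest level per length, and a fixed set of well-known carriers. Some members that enter the counts are not reported here by name. Alternatives were other scalings, filters and tools (DESeq2 1.42.0, limma 3.58.1), each library left out, a replicate block, other member rules and, chosen after the data were seen, a Y-linked covariate.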

Additional observations from a re-analysis of the deposited data

How the results depend on the processing

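No result named here changed its direction while called under any alternative run. The 33 higher and 39 lower members were 32 and 42 with DESeq2, 34 and 37 with limma-voom, 33 and 41 with the size factors of DESeq2, 31 and 39 without a low-count filter, and 32 and 42 with the filter of 1 CPM in 3 libraries. Leaving out 1 library at a time gave 23 to 30 higher and 27 to 38 lower members. Of the 72 calls 47 held in all 6 such refits, and 25 were lost in at least 1, 23 of them without PBS replicate 1. With the replicate number as a block, 27 were higher and 35 lower. The block lost 12 of the calls, among them those of Slc1a3 (adjusted p = 0.0533), Slc6a2 (adjusted p = 0.06), Slc36a1 (adjusted p = 0.0766), Slc27a4 (adjusted p = 0.0827), Slc12a2 (adjusted p = 0.0532), Slc39a2 (adjusted p = 0.104), Slc39a12 (adjusted p = 0.0644), Slc25a16 (adjusted p = 0.0566), Slc25a35 (adjusted p = 0.0869) and Slc35a5 (adjusted p = 0.0563), and added Slc37a2 and Slc5a6. Whether the numbers pair the samples is not in the labels. The correlations of deviations from the group means were -0.06, -0.08 and -0.05 for replicates 1, 2 and 3. No sample pair with the same number was the best match, but with so few libraries per group these values cannot settle the question.

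By class, library sizes alone gave 2 higher amino acid carriers, 4 higher ion carriers, 0 higher carriers of nucleotide sugars, 4 lower carriers of vitamins and choline, 5 higher carriers outside the symbol form and 7 lower partners and regulators, in place of 4, 7, 1, 2, 8 and 4. The higher carriers of nucleotide sugars were also 0 with the replicate block and with the Y-linked covariate. Members taken by a mean of at least 5 CPM had 5 lower amino acid carriers, 2 lower carboxylate carriers, and 1 higher and 0 lower carriers of organic ions.

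Without 1 library at a time the counts were 3 to 4 higher and 5 to 8 lower for amino acids, 4 to 7 and 4 to 6 for ions, 5 to 8 and 0 for mitochondrial carriers, 3 to 4 and 4 to 7 for metals, and 2 to 4 and 1 to 3 for sugars. They were 0 to 1 higher for nucleotide sugars, 5 to 8 and 3 to 7 for carriers outside the symbol form, and 8 to 10 and 3 to 5 for partners and regulators. Members under 5 CPM rest on few counts, so their fold changes are the least certain.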
